A study of Mus musculus with 2 samples.

Results

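The 41 genes described here encode the glucose transporters and enzymes of glycolysis, the enzymes and carriers that decide the fate of pyruvate, the enzymes of the pentose phosphate pathway, and the hypoxia-inducible factor (HIF) subunits with their regulators and targets. They were chosen by symbol from a table of 50508 genes, and each of the 41 has a row there. The study measured total RNA of E14, an embryonic stem cell line from 129/Ola mice, with 1 library labelled Mettl8 siRNA and 1 library labelled scramble siRNA. All cells were at passages 15 to 18, grew on gelatin with 15% serum and leukemia inhibitory factor, and were harvested 72 h after siRNA transfection. The series record speaks of triplicates, whereas the table holds a single column for each group. Whether that column stands for 1 culture or a pool is not stated. With 1 library per group, no difference below has a replicate check and no test between conditions was possible.

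Glycolysis splits glucose into pyruvate through a chain of cytosolic enzymes, many of which exist as alternative genes with different tissue preferences. Mouse embryonic stem cells are known for a high rate of glycolysis, and much of the pyruvate is turned into lactate and exported. HIF is a transcription factor made of an alpha subunit and ARNT. In oxygen, prolyl hydroxylases mark the alpha subunit, the VHL protein has it degraded, and its targets, which include glycolytic genes, stay low. The pentose phosphate pathway branches off at glucose 6-phosphate and supplies NADPH and ribose for nucleotides.

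Levels are in FPKM, which corrects for gene length and for the number of reads. Differences subtract log2(FPKM + 1) of the library labelled scramble siRNA from log2(FPKM + 1) of the library labelled Mettl8 siRNA, so a positive value means a higher level under the Mettl8 siRNA label. This scale understates the change of genes with low levels. Reads per gene were rebuilt from the values, and each ratio has an exact 95% counting interval, which covers counting error only. The rebuilt read totals of the table were 21.4 M in the library labelled Mettl8 siRNA and 22.2 M in the library labelled scramble siRNA. Mettl8 itself was 100.3 FPKM (15613 reads) in the library labelled Mettl8 siRNA and 0.67 FPKM (107 reads) in the library labelled scramble siRNA. The targeted gene was therefore about 149.8-fold higher where its siRNA is named, the opposite of a knockdown. Every direction below is one between libraries as they are labelled. Of 10 embryonic stem cell markers, 10 lay between 17.5 and 564 FPKM in the library labelled Mettl8 siRNA and between 20.1 and 578 FPKM in the library labelled scramble siRNA. Of these 10, 8 were lower and 2 higher under the Mettl8 siRNA label, with a median difference of -0.058. Over all 13243 genes with a mean of at least 1 FPKM, 45% were lower and the median was 0.013. The part of the marker differences in the differences below was not tested. Marker lists of fibroblasts (10 genes), primitive endoderm (7 genes) and mesoderm (6 genes) stayed below 1 FPKM in each library. Their summed levels were 1.73, 1.2 and 2.15 FPKM in the library labelled Mettl8 siRNA and 2.09, 0.83 and 1.86 FPKM in the library labelled scramble siRNA. The collagen gene Col3a1 and the proteoglycan gene Lum, fibroblast markers, were at 0.01 FPKM in the library labelled Mettl8 siRNA and listed at 0 in the library labelled scramble siRNA. Of 6 neural markers, 3 reached a mean of 1 FPKM, led by Tubb3 at 17.9 FPKM in each library. The summed neural level was 20.6 FPKM in the library labelled Mettl8 siRNA and 20.2 FPKM in the library labelled scramble siRNA, where Neurog2 and Dcx were listed at 0.

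Most of the 41 genes had close levels in the 2 libraries, and the largest differences in size were those of Bnip3, Aldoc, Ankrd37, Vegfa and Ldhb. As deposited, the glucose transporter genes Slc2a1 and Slc2a3, several enzymes of upper glycolysis and the HIF targets Bnip3 and Vegfa were lower in the library labelled Mettl8 siRNA. Other hypoxia or HIF targets had intervals that held 1: Bnip3l (0.934), Slc16a3 (0.935), Egln3 (0.885), Pdk1 (0.996) and Ankrd37, which was higher (1.28). The genes Gapdh, Pgk1, Pgam1, Eno1 and Pkm of lower glycolysis, Ldha and the pentose phosphate enzymes had ratios between 0.975 and 1.06 as deposited. Rescaled to the same FPKM sum, the counting intervals of this second group of genes lay above 1. Of the 41 genes, 39 had a mean of at least 1 FPKM over both libraries, and Eno2 and Car9 did not. Among the 39, 18 were higher and 21 lower in the library labelled Mettl8 siRNA, with a median difference of -0.016, against 0.013 over all 13243 genes at this level. The 21 are 53.85% of the 39, beside 45% lower of all 13243 genes. The median of the 39 turned positive, at 0.077, when both libraries were rescaled to the same FPKM sum, a step that moved the median of all genes to 0.089 and left 25 of the 39 higher and 14 lower. In bulk RNA, fewer cells that express a gene and less of its RNA per cell cannot be told apart.

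At 1.2-fold on the log2(FPKM + 1) scale, 2 of the 39 genes were lower (Bnip3 and Aldoc) and 0 higher in the library labelled Mettl8 siRNA. Over all 13243 genes, 5.01% were lower and 4.48% higher by this rule. After rescaling to the same FPKM sum these shares were 3.28% lower and 8.62% higher, and the members had 0 lower and 1 higher. As deposited, 664 genes were lower and 593 higher by this rule, of which 212 and 195 have at least 500 bases. The shortest of the 41 has 1539 bases. Among the 11367 genes of at least 500 bases, 1.87% were lower and 1.72% higher. The 2 lower members, 5.13% of the 39, are close to the 5.01% of all genes and above the 1.87% of the longer genes. A count of 2 is too small to read further. On plain FPKM ratios Vegfa, at 0.831, and Ankrd37, at 1.28, would also lie past 1.2-fold.

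Counting intervals of the ratio left out 1 for 15 of the 39 genes. In the library labelled Mettl8 siRNA 11 of them were lower, which is 28.2% of the 39, beside 7.83% of all 13243 genes. The other 4 were higher, which is 10.3%, beside 11.6% of all genes. Deeply sequenced genes pass this rule more readily, and most of the 41 are deeply sequenced. Among the 29 members with at least 1000 reads over both libraries, 7 were lower (24.1%) and 4 higher (13.8%), beside 10.9% and 19.7% of the 6089 genes of that depth. These counts say where 2 libraries differ by more than counting error and nothing about the spread between cultures. They also move with the scaling. After rescaling to the same FPKM sum, which multiplies every ratio by 1.067, 4 were lower and 18 higher. The 4 that were still lower there were Slc2a1, Aldoc, Ldhb and Bnip3, while the other 7, Slc2a3, Hk1, Gpi1, Pfkl, Pfkm, Pfkfb3 and Vegfa, had intervals that held 1. Scaling to the same reads in genes of at least 500 bases gave 11 lower and 11 higher, and setting the median of all genes to 0 gave 16 lower and 3 higher. Shares of all genes were not computed for these scaled intervals, so the scaled counts cannot be read as particular to the members.

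**Figure D1:**
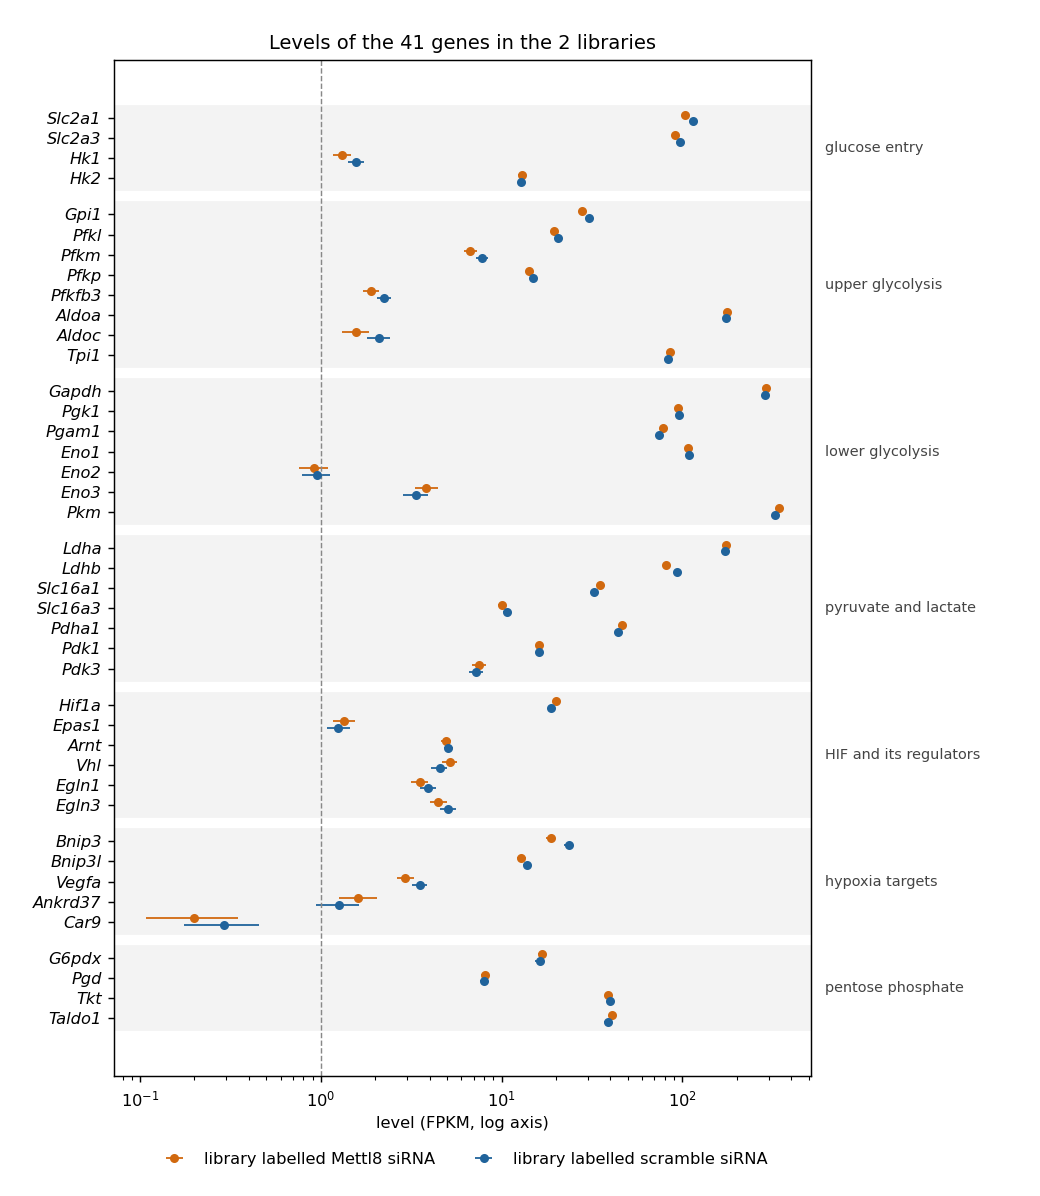
Levels of the 41 genes in FPKM on a log axis, grouped by role, in the library labelled Mettl8 siRNA (orange) and the library labelled scramble siRNA (blue), with exact 95% Poisson intervals as bars. Levels run from 0.20 FPKM for Car9 to 342 FPKM for Pkm in the library labelled Mettl8 siRNA, the dashed line marks 1 FPKM, and the paired points of most genes nearly coincide.

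Transcript levels of the members ranged widely, from below 1 FPKM for Car9 and Eno2 to 342 FPKM for Pkm in the library labelled Mettl8 siRNA. Pkm, the pyruvate kinase gene, was the most abundant and ranked 94 among the 13243 genes. Gapdh ranked 107, Aldoa 183 and Ldha 185. The 11 members with a mean of at least 50 FPKM had a median difference of 0.017 and a range of -0.19 to 0.075. The 18 members between 5 and 50 FPKM had a median of -0.021 and a range of -0.31 to 0.10. The 10 members between 1 and 5 FPKM had a median of -0.14 and a range of -0.27 to 0.21, and their reads are fewest.

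Glucose enters the cell through facilitative transporters and is trapped by hexokinase. Slc2a1 encodes GLUT1, the widely expressed glucose transporter. It was 103 FPKM in the library labelled Mettl8 siRNA and 115 FPKM in the library labelled scramble siRNA, a ratio of 0.898 (0.874 to 0.923). Slc2a3, the gene of the high-affinity transporter GLUT3, was 90.8 FPKM in the library labelled Mettl8 siRNA and 97.5 FPKM in the library labelled scramble siRNA, a ratio of 0.931 (0.9124 to 0.9498). Rescaled to the same FPKM sum, the ratio of Slc2a1 was 0.959 (0.933 to 0.985), still below 1, whereas that of Slc2a3 was 0.993 (0.974 to 1.014), an interval that held 1. Slc2a1 made up the larger part of the pair in each library. Hk2, the hexokinase gene typical of growing and insulin-sensitive cells, was 12.9 FPKM in each library, with a ratio of 1.006 (0.948 to 1.07) as deposited. Rescaled to the same FPKM sum, the ratio of Hk2 was 1.074 (1.011 to 1.14), above 1. Hk1, the ubiquitous hexokinase gene, was 1.31 FPKM (311 reads) in the library labelled Mettl8 siRNA and 1.57 FPKM (381 reads) in the library labelled scramble siRNA. Hk2 therefore made up 90.8% of the hexokinase pair in the library labelled Mettl8 siRNA and 89.1% in the library labelled scramble siRNA. The median difference of the 4 genes was -0.13, and it was negative under each scaling tried.

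Slc2a1 lies on chromosome 4 (GRCm38, plus strand, 119108711 to 119137983). An annotated antisense gene, Gm12868, shares 105 exonic bases with it and was 86.3 FPKM in the library labelled Mettl8 siRNA and 99.8 FPKM in the library labelled scramble siRNA. Without a stated strand setting, the reads of these overlapping genes cannot be told apart.

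Upper glycolysis turns hexose phosphates into triose phosphates. Gpi1, which encodes glucose phosphate isomerase, was 27.8 FPKM in the library labelled Mettl8 siRNA and 30.3 FPKM in the library labelled scramble siRNA, a ratio of 0.916 (0.882 to 0.952). Phosphofructokinase, the main control point of the pathway, was present as 3 genes. Pfkl, named for the liver form, was 19.5 FPKM in the library labelled Mettl8 siRNA and 20.6 FPKM in the library labelled scramble siRNA. Pfkp, the platelet form, was 14.2 FPKM in the library labelled Mettl8 siRNA and 14.9 FPKM in the library labelled scramble siRNA. Pfkm, the muscle form, was 6.73 FPKM in the library labelled Mettl8 siRNA and 7.77 FPKM in the library labelled scramble siRNA, a ratio of 0.866 (0.773 to 0.972). Each of the 3 was thus lower in the library labelled Mettl8 siRNA, and the interval of Pfkp reached a ratio of 1. Rescaling to the same FPKM sum turned the differences of Pfkl and Pfkp positive, at 0.011 and 0.027. Their order did not change, with Pfkl at 48.2% of the 3 in the library labelled Mettl8 siRNA and 47.7% in the library labelled scramble siRNA. Pfkfb3 encodes an enzyme that makes fructose 2,6-bisphosphate, an activator of phosphofructokinase. Its level was 1.90 FPKM in the library labelled Mettl8 siRNA and 2.25 FPKM in the library labelled scramble siRNA, a ratio of 0.844 (0.739 to 0.967).

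Aldolase cleaves the hexose bisphosphate, and its 2 genes listed here differed widely in level. Aldoa was 177 FPKM in the library labelled Mettl8 siRNA and 175 FPKM in the library labelled scramble siRNA, a ratio of 1.017 (0.996 to 1.04). Aldoc, best known from the brain, was 1.56 FPKM (142 reads) in the library labelled Mettl8 siRNA and 2.09 FPKM (194 reads) in the library labelled scramble siRNA. Its ratio was 0.746 (0.599 to 0.935), the lowest of the 39 genes. Aldoc took 0.871% of the aldolase pair in the library labelled Mettl8 siRNA and 1.18% in the library labelled scramble siRNA, so the sum of both genes hardly depends on it. Tpi1, the triose phosphate isomerase gene, was 86.0 FPKM in the library labelled Mettl8 siRNA and 83.5 FPKM in the library labelled scramble siRNA. Over the 8 genes of upper glycolysis 6 were lower and 2 higher in the library labelled Mettl8 siRNA, with a median difference of -0.10 that moved to -0.010 after rescaling to the same FPKM sum. Of all 13243 genes, 45% were lower as deposited.

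Lower glycolysis yields the ATP and ends in pyruvate, and its genes Pkm and Gapdh had the highest levels of the members. Gapdh, the gene of glyceraldehyde phosphate dehydrogenase and a common reference transcript, was 291 FPKM in the library labelled Mettl8 siRNA and 287 FPKM in the library labelled scramble siRNA. Pgk1, which encodes the phosphoglycerate kinase on the X chromosome, was 94.7 FPKM in the library labelled Mettl8 siRNA and 95.7 FPKM in the library labelled scramble siRNA. Pgam1, the phosphoglycerate mutase gene, was 78.0 FPKM in the library labelled Mettl8 siRNA and 74.8 FPKM in the library labelled scramble siRNA. As deposited, the intervals of these 3 ratios held 1. Rescaled to the same FPKM sum they lay above 1, with ratios of 1.083 for Gapdh, 1.055 for Pgk1 and 1.112 for Pgam1. Pkm, which encodes the muscle pyruvate kinases M1 and M2 by alternative splicing, was 342 FPKM in the library labelled Mettl8 siRNA and 325 FPKM in the library labelled scramble siRNA. Its ratio of 1.05 (1.04 to 1.07) rests on 47584 reads in the library labelled Mettl8 siRNA and 46216 in the library labelled scramble siRNA, and the table does not separate the M1 and M2 transcripts.

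Enolase was almost wholly Eno1, the ubiquitous form. Eno1 was 108 FPKM in the library labelled Mettl8 siRNA and 109.6 FPKM in the library labelled scramble siRNA. Eno3, the muscle form, was 3.84 FPKM (186 reads) in the library labelled Mettl8 siRNA and 3.35 FPKM (166 reads) in the library labelled scramble siRNA. Its ratio of 1.15 had an interval of 0.925 to 1.42. Eno2, the neuronal form, was 0.92 FPKM in the library labelled Mettl8 siRNA and 0.95 FPKM in the library labelled scramble siRNA, below the level filter. Eno1b, a separate gene near-identical to Eno1, was 70.9 FPKM in the library labelled Mettl8 siRNA and 72.03 FPKM in the library labelled scramble siRNA. It held 39.6% of the Eno1 and Eno1b sum in the library labelled Mettl8 siRNA and 39.7% in the library labelled scramble siRNA. How reads that match both genes were assigned is not given, so the level of Eno1 is uncertain. The ratio between libraries was 0.985 (0.964 to 1.01) for Eno1 and 0.984 (0.939 to 1.03) for Eno1b. Of 13 listed pseudogene or retrogene copies of the members, Pgam1-ps2 was the only other one with a mean of at least 1 FPKM, at 2.07 FPKM (44 reads) in the library labelled Mettl8 siRNA and 1.75 FPKM (38 reads) in the library labelled scramble siRNA. The remaining copies reached at most 0.60 FPKM in the library labelled Mettl8 siRNA and 0.57 FPKM in the library labelled scramble siRNA.

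**Figure D2:**
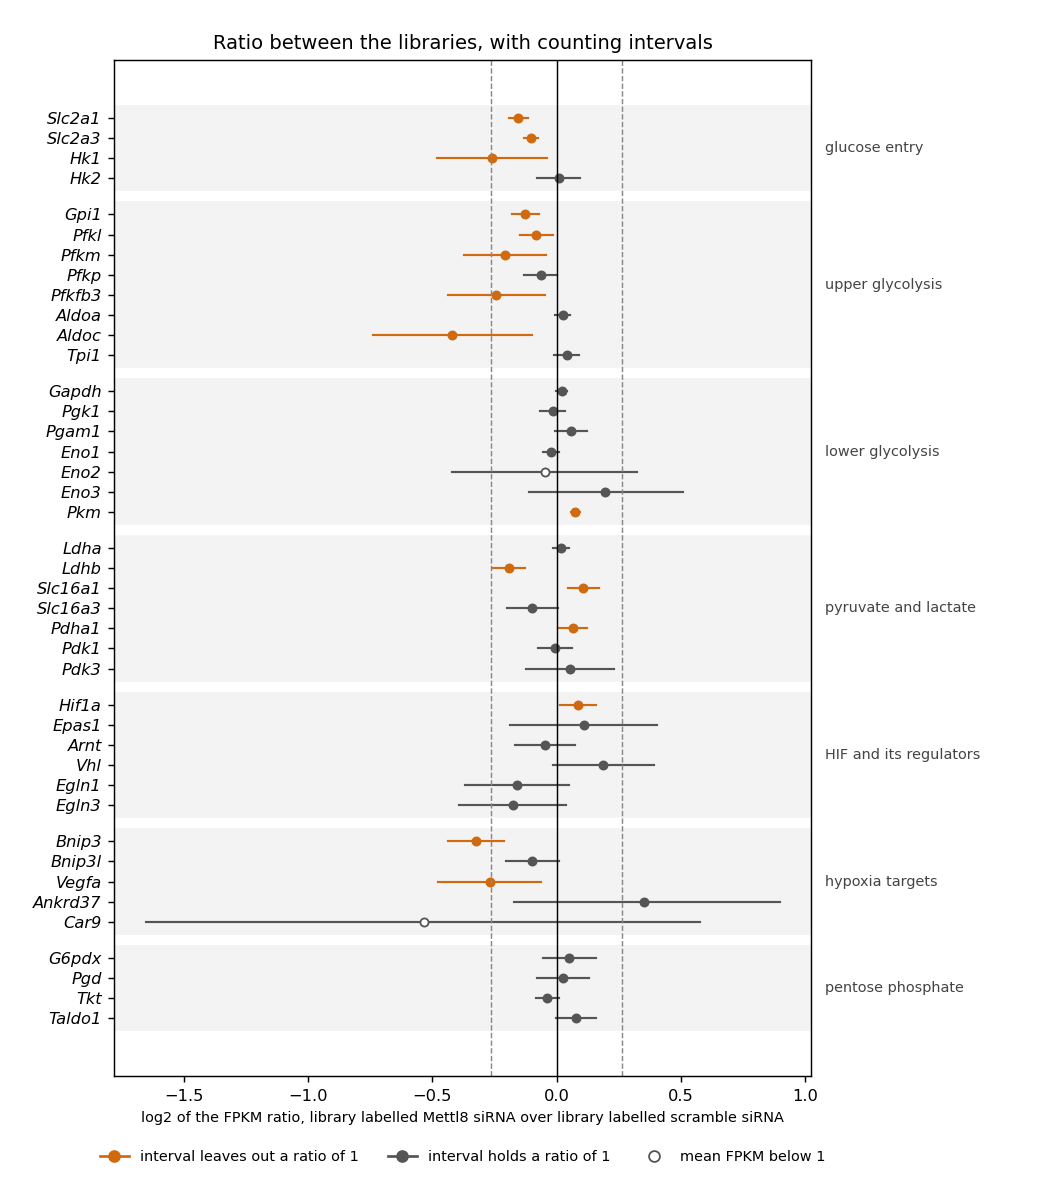
Log2 of the plain FPKM ratio, library labelled Mettl8 siRNA over library labelled scramble siRNA, for the 41 genes by role, with exact 95% counting intervals as bars. Orange marks the 15 genes whose interval leaves out a ratio of 1, open points the 2 genes with a mean below 1 FPKM, and dashed lines a 1.2-fold ratio; 11 orange points lie left of 0 and 4 right of it.

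Pyruvate is reduced to lactate and exported, or enters the mitochondrion. Ldha, whose subunit favours lactate formation, was 175 FPKM in the library labelled Mettl8 siRNA and 173 FPKM in the library labelled scramble siRNA, a ratio of 1.01 (0.990 to 1.03). Ldhb, whose subunit favours the reverse reaction, was 81.4 FPKM in the library labelled Mettl8 siRNA and 93.0 FPKM in the library labelled scramble siRNA, a ratio of 0.875 (0.837 to 0.916). The level of Ldha was thus 2.15 times that of Ldhb in the library labelled Mettl8 siRNA and 1.86 times in the library labelled scramble siRNA. Slc16a1, the gene of the lactate transporter MCT1, was 34.9 FPKM in the library labelled Mettl8 siRNA and 32.4 FPKM in the library labelled scramble siRNA, a ratio of 1.08 (1.03 to 1.13). Slc16a3, which encodes MCT4, a lactate exporter known as a HIF target, was 10.01 FPKM in the library labelled Mettl8 siRNA and 10.7 FPKM in the library labelled scramble siRNA. Its ratio of 0.935 had an interval of 0.871 to 1.004, which held 1. Slc16a1 made up 77.7% of the pair in the library labelled Mettl8 siRNA and 75.1% in the library labelled scramble siRNA.

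Pyruvate dehydrogenase opens the way into the citric acid cycle, and its kinases close it. Pdha1, the catalytic alpha subunit, was 46.1 FPKM in the library labelled Mettl8 siRNA and 44.1 FPKM in the library labelled scramble siRNA, a ratio of 1.05 (1.01 to 1.09). Map3k15, a gene on the other strand at 13.0 FPKM in the library labelled Mettl8 siRNA and 12.9 FPKM in the library labelled scramble siRNA, shares 603 exonic bases with Pdha1. Pdk1, a kinase gene known as a HIF target, was 16.1 FPKM in the library labelled Mettl8 siRNA and 16.2 FPKM in the library labelled scramble siRNA. Pdk3, a related kinase gene, was 7.52 FPKM in the library labelled Mettl8 siRNA and 7.24 FPKM in the library labelled scramble siRNA. As deposited, neither kinase gene differed beyond counting error, with ratios of 0.996 (0.951 to 1.04) and 1.04 (0.919 to 1.17). Rescaled to the same FPKM sum, the ratio of Pdk1 was 1.063 (1.014 to 1.114), above 1. That of Pdk3 was 1.108 (0.981 to 1.252), an interval that held 1.

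The 4 pentose phosphate genes had differences of at most 0.077 in size as deposited. G6pdx, the glucose 6-phosphate dehydrogenase gene that commits glucose to the pathway, was 16.8 FPKM in the library labelled Mettl8 siRNA and 16.2 FPKM in the library labelled scramble siRNA. Pgd, the next dehydrogenase of the oxidative branch, was 8.12 FPKM in the library labelled Mettl8 siRNA and 7.97 FPKM in the library labelled scramble siRNA. The transketolase gene Tkt was 38.6 FPKM in the library labelled Mettl8 siRNA and 39.6 FPKM in the library labelled scramble siRNA. The transaldolase gene Taldo1 was 40.8 FPKM in the library labelled Mettl8 siRNA and 38.6 FPKM in the library labelled scramble siRNA. For each of the 4 the interval of the ratio held 1, and their differences lay between -0.036 and 0.077. Rescaled to the same FPKM sum, the 4 intervals lay above 1, with differences from 0.055 for Tkt to 0.17 for Taldo1 and a median of 0.12, against 0.036 as deposited. Tkt and Taldo1 transcripts were more abundant than those of G6pdx and Pgd in both libraries.

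**Figure D3:**
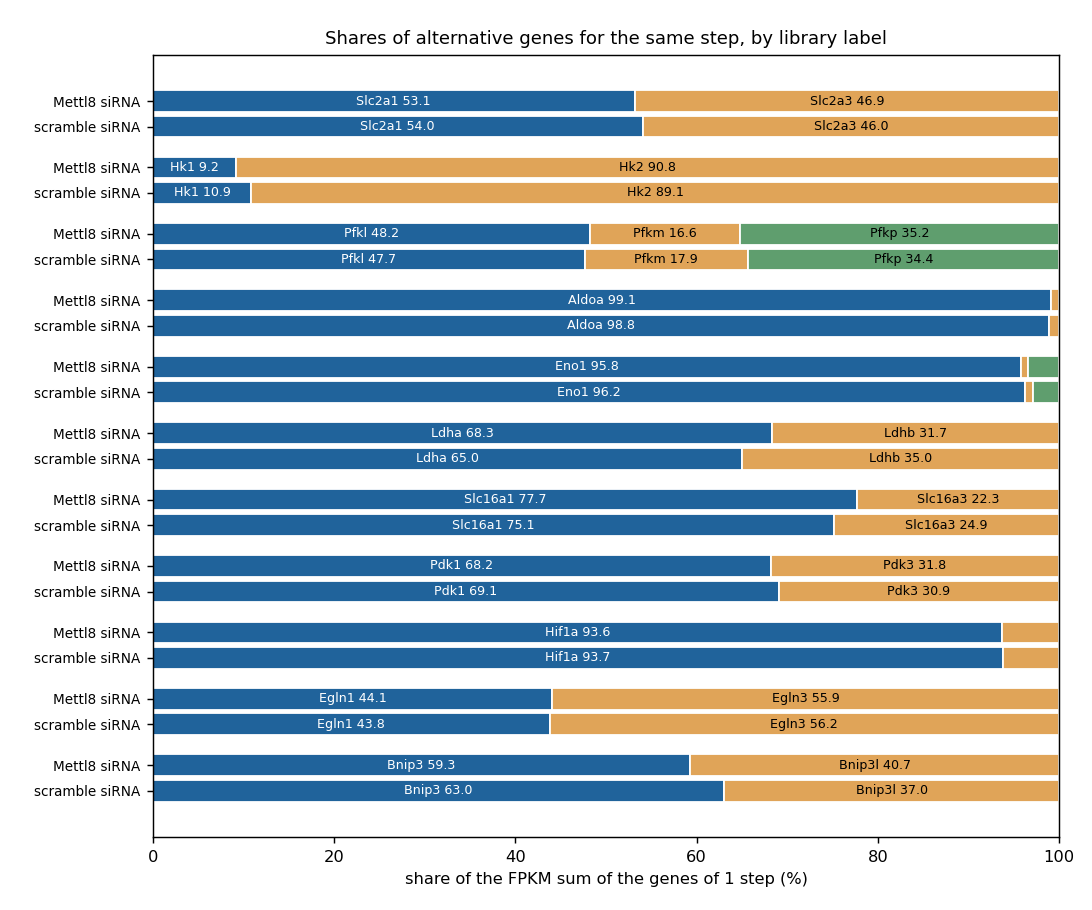
Share of each alternative gene in the FPKM sum of its step, in percent, for 11 steps, with the library labelled Mettl8 siRNA above the library labelled scramble siRNA. The leading gene is the same in both libraries at each step, and the shares differ most for Bnip3 (59.3% against 63.0%) and Ldha (68.3% against 65.0%).

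The HIF subunit genes were close between the libraries. Hif1a, the oxygen-regulated alpha subunit found in most cells, was 19.9 FPKM in the library labelled Mettl8 siRNA and 18.7 FPKM in the library labelled scramble siRNA, a ratio of 1.06 (1.01 to 1.12). Epas1, which encodes the related subunit HIF2 alpha, was 1.35 FPKM in the library labelled Mettl8 siRNA and 1.25 FPKM in the library labelled scramble siRNA. Hif1a thus held 93.6% of the alpha subunit pair in the library labelled Mettl8 siRNA and 93.7% in the library labelled scramble siRNA. Arnt, the constitutive partner, was 4.92 FPKM in the library labelled Mettl8 siRNA and 5.08 FPKM in the library labelled scramble siRNA. HIF alpha is controlled mostly as a protein, which these data do not measure.

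The genes that restrain HIF had wide intervals at these levels. Vhl, the substrate receptor of the ligase that has HIF degraded, was 5.17 FPKM in the library labelled Mettl8 siRNA and 4.54 FPKM in the library labelled scramble siRNA, a ratio of 1.14 (0.991 to 1.31). Egln1, which encodes the main HIF prolyl hydroxylase PHD2, was 3.52 FPKM in the library labelled Mettl8 siRNA and 3.93 FPKM in the library labelled scramble siRNA, a ratio of 0.896 (0.774 to 1.04). Egln3, the gene of PHD3 and itself a HIF target, was 4.47 FPKM in the library labelled Mettl8 siRNA and 5.05 FPKM in the library labelled scramble siRNA, a ratio of 0.885 (0.761 to 1.03). As deposited, none of these 3 intervals left out 1. Rescaled to the same FPKM sum, the ratio of Vhl was 1.215 (1.057 to 1.398), above 1. Scaled to the same reads in genes of at least 500 bases it was 1.15 (1.001 to 1.324). The intervals of Egln1 and Egln3 held 1 under both scalings. The median of the 6 HIF genes was 0.012, and it was -0.0012 with the median of all genes set to 0.

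Hypoxia targets outside glycolysis held the largest single difference. Bnip3, which encodes a mitochondrial protein of mitophagy and cell death, was 18.7 FPKM (1181 reads) in the library labelled Mettl8 siRNA and 23.5 FPKM (1513 reads) in the library labelled scramble siRNA. Its difference of -0.31 was the largest in size among the members, with a ratio of 0.798 (0.740 to 0.862). Its relative Bnip3l, or NIX, was 12.9 FPKM in the library labelled Mettl8 siRNA and 13.8 FPKM in the library labelled scramble siRNA, a ratio of 0.934 (0.868 to 1.01). Vegfa, the angiogenic growth factor gene, was 2.94 FPKM (350 reads) in the library labelled Mettl8 siRNA and 3.54 FPKM (432 reads) in the library labelled scramble siRNA, a ratio of 0.831 (0.718 to 0.957). Ankrd37, an ankyrin repeat gene induced by hypoxia, went the other way. It was 1.61 FPKM (69 reads) in the library labelled Mettl8 siRNA and 1.26 FPKM (55 reads) in the library labelled scramble siRNA. Its ratio of 1.28 had an interval of 0.888 to 1.86. Car9, which encodes carbonic anhydrase IX, a sensitive hypoxia marker, was 0.20 FPKM (13 reads) in the library labelled Mettl8 siRNA and 0.29 FPKM (19 reads) in the library labelled scramble siRNA. So 3 of the 4 targets at 1 FPKM or more were lower and 1 was higher in the library labelled Mettl8 siRNA, and Car9 was near the limit of detection in both. Beside these, 45% of all 13243 genes were lower, and a count of 4 is too small to read further.

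Bnip3 lies on chromosome 7 (GRCm38, minus strand, 138890836 to 138909519). The antisense gene Gm45507 covers 504 of its exonic bases, 22.3% of the total, and was 47.0 FPKM in the library labelled Mettl8 siRNA and 56.9 FPKM in the library labelled scramble siRNA. It is thus lower in the same library, and reads in the shared stretch may belong to either gene. Of the other members, Ankrd37 shares 22.7% of its exonic bases with Lrp2bp on the other strand, which was 0.15 FPKM in the library labelled Mettl8 siRNA and 0.18 FPKM in the library labelled scramble siRNA. Expressed genes on the other strand also overlap Gpi1 (Gm26762, 741 bases), Hif1a (Gm15283, 330 bases) and Pfkp (Pitrm1, 748 bases). They were 7.52, 15.5 and 28.2 FPKM in the library labelled Mettl8 siRNA and 8.46, 15.0 and 25.9 FPKM in the library labelled scramble siRNA. Gm26762 and Gm15283 went the same way as their member, and Pitrm1 the other way.

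**Figure D4:**
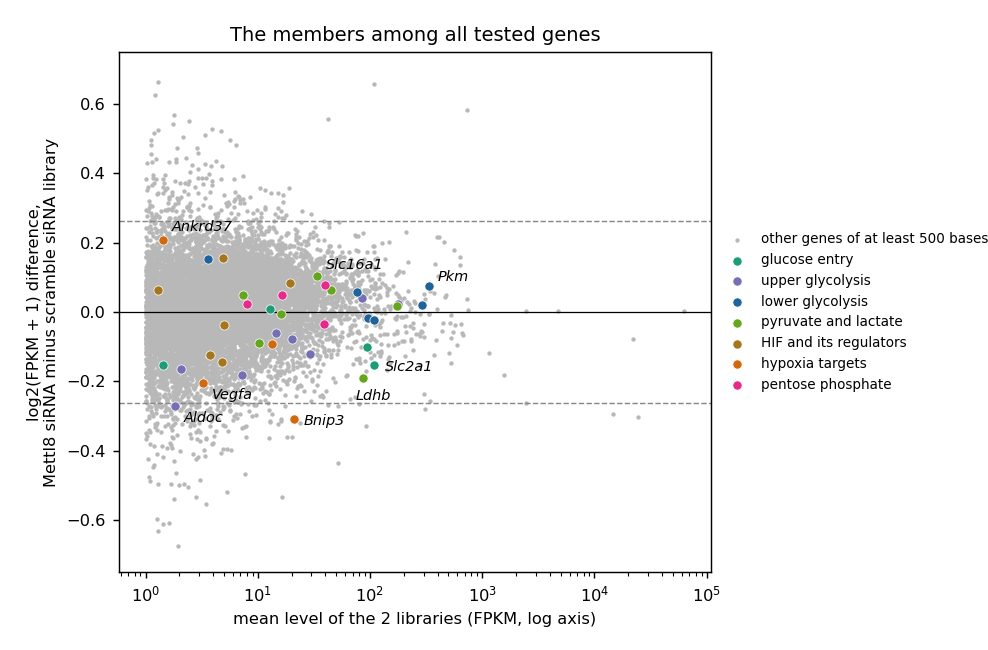
Difference in log2(FPKM + 1), library labelled Mettl8 siRNA minus library labelled scramble siRNA, against the mean level in FPKM on a log axis, for the 39 members at 1 FPKM or more (coloured by role) and all other genes of at least 500 bases except Mettl8 (grey). Dashed lines mark 1.2-fold; Bnip3 at -0.31 and Aldoc at -0.27 lie below the lower line, and the other members lie between the lines within the cloud.

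HIF binds DNA at a 5-letter core, ACGTG or GCGTG, within the hypoxia response element. Both cores were searched on both strands in RefSeq windows from 250 bases before to 50 after a start site (GRCm38.p6), which matched 38 of the 41 members. ACGTG was found in a window of 23 of the 38 members (60.5%), beside 30.6% of the 8137 other genes with a mean of at least 1 FPKM and 21.8% of all 27025 genes with a window. GCGTG was found for 26 of the 38 (68.4%), beside 57.8% of the other genes at this level and 35.2% of all genes. The E-box CACGTG, which contains ACGTG on both strands, was found for 6 of the 38 (15.8%), beside 12.7% and 8.09%. By role, ACGTG was found for 3 of 3 glucose entry genes, 4 of 8 of upper glycolysis, 4 of 7 of lower glycolysis, 4 of 7 of pyruvate and lactate, 3 of 5 HIF genes, 4 of 4 hypoxia targets and 1 of 4 pentose phosphate genes. Many of these genes were listed for known links to hypoxia, so the shares describe the list, and a match is no evidence of binding.

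The 250 bases before the start site are printed for Bnip3, the member with the largest difference, for Ankrd37, the hypoxia target with the opposite direction, and for Ldha, whose level was close in both libraries. Each stretch belongs to 1 RefSeq start, and Ldha has a further one downstream. Capitals mark ACGTG and GCGTG on either strand, and each sequence reads 5′ to 3′ on the strand of its gene.
Bnip3 (chr7:138909507-138909756, minus strand): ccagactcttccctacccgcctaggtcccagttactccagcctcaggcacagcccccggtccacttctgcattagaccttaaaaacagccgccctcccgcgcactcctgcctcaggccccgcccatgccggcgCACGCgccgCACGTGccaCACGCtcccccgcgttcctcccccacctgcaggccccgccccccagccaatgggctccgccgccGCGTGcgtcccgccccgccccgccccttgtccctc
Ankrd37 (chr8:45999851-46000100, minus strand): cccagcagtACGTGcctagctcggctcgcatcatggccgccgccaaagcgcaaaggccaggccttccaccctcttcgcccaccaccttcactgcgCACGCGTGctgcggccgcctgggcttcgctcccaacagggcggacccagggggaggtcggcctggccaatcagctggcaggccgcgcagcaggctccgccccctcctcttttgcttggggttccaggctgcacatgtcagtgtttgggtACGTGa
Ldha (chr7:46845554-46845803, plus strand): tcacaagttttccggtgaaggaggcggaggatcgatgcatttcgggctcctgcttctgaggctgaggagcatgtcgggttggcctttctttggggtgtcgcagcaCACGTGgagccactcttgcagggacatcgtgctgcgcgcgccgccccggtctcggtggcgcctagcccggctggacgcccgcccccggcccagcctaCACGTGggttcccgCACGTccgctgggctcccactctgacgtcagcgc
In Bnip3, the E-box lies 108 bases before the start and is flanked by a GCGTG match on each side, at 117 and 99 bases. A further GCGTG lies at 35 bases. Ankrd37 has ACGTG at 241 and 6 bases before the start, and 2 overlapping GCGTG matches, 1 on each strand, at 155 and 152 bases. Ldha has 2 E-boxes, at 145 and 48 bases, and a further ACGTG match at 34 bases. In the printed bases Ldha had 5 ACGTG matches, with each E-box counted on both strands, and Bnip3 and Ankrd37 had 2 each. The searched window of this Ldha start also holds GCGTG past the printed bases, at -25 and -37 bases before the start. As deposited, the ratio of Ldha was near 1, and at the same FPKM sum it was 1.08 (1.057 to 1.104). Ankrd37 and Bnip3 had differences of opposite sign, though the interval of Ankrd37, 0.888 to 1.86, held 1. A link between the matches and the differences was not tested.

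A wider set of 83 other genes of the same pathways was examined in the same way. Of these, 52 had a mean of at least 1 FPKM, of which 20 were higher, 31 lower and 1 equal, with a median difference of -0.038 that turned to 0.042 after rescaling to the same FPKM sum. The 31 are 59.6% of the 52, beside 45% lower of all 13243 genes. At 1.2-fold 3 of the 52 were lower and 0 higher, or 5.77%, beside 5.01% lower among all 13243 genes and 1.87% lower among those of at least 500 bases. After rescaling to the same FPKM sum 2 were lower and 1 higher, beside 3.28% lower and 8.62% higher of all genes. Slc2a8, which encodes an intracellular glucose transporter, was 2.76 FPKM in the library labelled Mettl8 siRNA and 4.01 FPKM in the library labelled scramble siRNA, a ratio of 0.688 (0.583 to 0.811). Ddit4, or REDD1, a stress- and hypoxia-induced inhibitor of mTORC1, was 15.9 FPKM in the library labelled Mettl8 siRNA and 20.6 FPKM in the library labelled scramble siRNA, a ratio of 0.769 (0.6998 to 0.845). Stc2, a secreted glycoprotein gene induced by stress, was 1.42 FPKM in the library labelled Mettl8 siRNA and 1.97 FPKM in the library labelled scramble siRNA, a ratio of 0.721 (0.599 to 0.864). The gluconeogenic gene Pck2 followed just short of 1.2-fold on the log2(FPKM + 1) scale, with a difference of -0.2614. It was 1.97 FPKM in the library labelled Mettl8 siRNA and 2.56 FPKM in the library labelled scramble siRNA. Its plain ratio of 0.77 (0.631 to 0.932) lies past 1.2-fold. G6pc3, the ubiquitous glucose 6-phosphatase gene, was 1.65 FPKM in the library labelled Mettl8 siRNA and 1.23 FPKM in the library labelled scramble siRNA, a ratio of 1.34 whose interval of 0.987 to 1.82 held 1.

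Of the 21 other hypoxia targets at this level, 16 were lower and 5 higher in the library labelled Mettl8 siRNA, with a median of -0.075. Of the 21, 76.2% were thus lower, beside 45% of all 13243 genes. After rescaling to the same FPKM sum 10 of them were lower. That step moved the median of all genes to 0.089, and the share of all genes lower after it was not computed. Counting intervals left out 1 for 5 of the lower genes (23.8% of the 21, beside 7.83% of all genes) and 1 of the higher (4.76%, beside 11.6%). These shares of all genes were not matched for read depth. Plod2, a collagen lysyl hydroxylase gene, was 13.1 FPKM in the library labelled Mettl8 siRNA and 15.2 FPKM in the library labelled scramble siRNA. Kdm3a, a histone demethylase gene, was the higher one, at 16.03 FPKM in the library labelled Mettl8 siRNA and 15.02 FPKM in the library labelled scramble siRNA. Of the 6 other HIF regulators 5 were higher and 1 lower, beside 7166 higher and 5959 lower of all 13243 genes. The ligase subunit gene Eloc led them, at 12.3 FPKM in the library labelled Mettl8 siRNA and 10.9 FPKM in the library labelled scramble siRNA. Its interval was the only 1 of the 6 to leave out a ratio of 1. The 8 pyruvate dehydrogenase genes had a median of 0.0041 and the 6 other pentose phosphate genes one of -0.029.

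**Figure D5:**
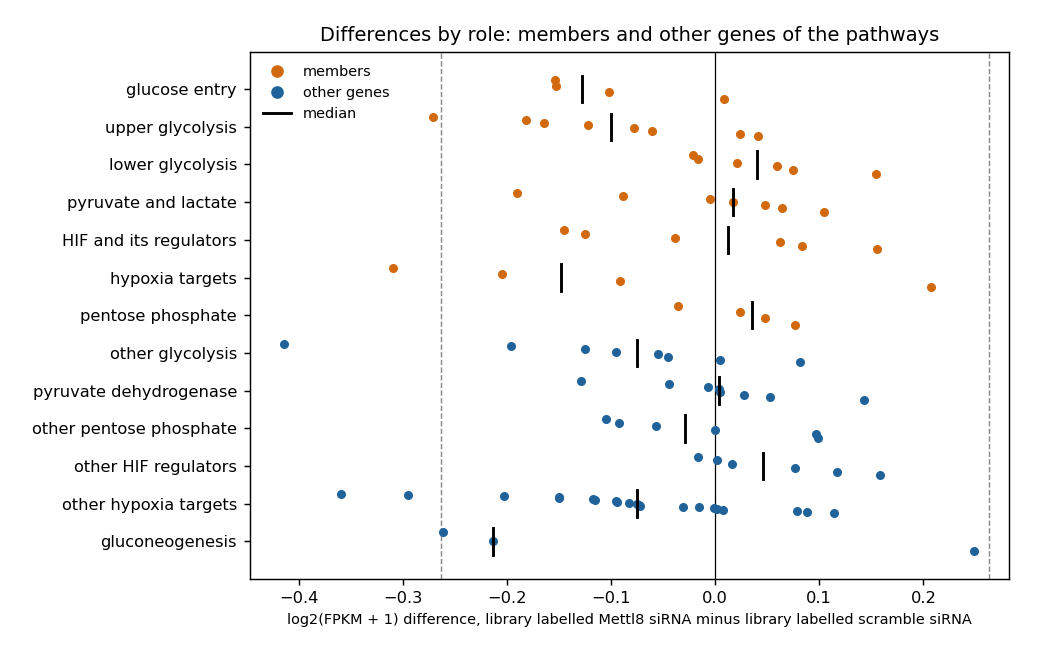
Difference in log2(FPKM + 1), library labelled Mettl8 siRNA minus library labelled scramble siRNA, for each member (orange) and each other pathway gene (blue) with a mean of at least 1 FPKM, by role, with the median as a black bar and 1.2-fold as dashed lines. Medians run from -0.21 for gluconeogenesis to 0.046 for the other HIF regulators, and the points of each role fall on both sides of 0.

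Differences varied with the base composition of the transcripts across the whole table. Genes of at least 500 bases were put in 3 equal bins by the GC content of their annotated transcripts. The median difference was 0.048 in the GC-poorest bin, 0.016 in the middle bin and -0.027 in the GC-richest bin. The 39 members had 6, 17 and 16 genes in these bins, with medians of 0.056, -0.0051 and -0.057. The members were GC-richer than the table, with a median of 52.8% against 50.7%. The part of base composition in the differences of the members was not tested.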

How the data were processed

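RNA libraries of E14 cells, 1 labelled Mettl8 siRNA and 1 labelled scramble siRNA, were compared. The authors deposited FPKM values, rounded to 2 decimals, with a gene length. Per the submitters' processing notes, STAR 2.4.0i, featureCounts 1.5.0-p1 and mm10 were used; for the annotation, the strand setting and reads with several matches, the choice is not given in the sources used here. FPKM times length fell on whole multiples of 1 step per library (within rounding plus 0.005 reads for 3563 of 3563 and 3121 of 3121 values of genes under 400 bases with fewer than 30 reads), which gave the denominators, 27.8 M and 28.5 M reads in the libraries labelled Mettl8 siRNA and scramble siRNA, and the reads per gene.

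Differences used a pseudocount of 1 and genes with a mean of at least 1 FPKM, 13243 in all. Intervals are exact Poisson for levels and exact Clopper-Pearson for ratios, at 95%. They cover counting error only, since each group has 1 library. PCR copies were counted without molecular identifiers, so the intervals may be too narrow even for counting error. The interval code was checked on simulated data. With 1 library per group no test was made. Positions, overlaps and GC content came from GENCODE M21 on GRCm38, whose exon union equalled the deposited length for 35 of the 41 members. Named genes are all 41 members, Mettl8, other pathway genes past 1.2-fold or among the 5 largest differences, and copies with a mean of at least 1 FPKM; Plod2, Kdm3a, Eloc, the overlapping genes and the markers named were added after their values were seen. Members and lists were chosen with earlier results of these data known. Scripts used Python 3.11.15, numpy 2.4.6, pandas 2.3.3, scipy 1.17.1 and matplotlib 3.10.9.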

Additional observations from a re-analysis of the deposited data

How the results depend on the processing

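No paired analysis was possible because each group has 1 library, and for the same reason no replicate could be left out. Mettl8 was 5.92 higher on the log2 scale in the library labelled Mettl8 siRNA as reported and 7.03 with a pseudocount of 0.1. Rescaling both libraries to the same FPKM sum moved most results. That sum depends on the 57-base gene Gm23935, which held 32.1% of it in the library labelled Mettl8 siRNA and 33.3% in the library labelled scramble siRNA. The rescaling gave medians of 0.077 for the members, -0.035 for glucose entry, -0.010 for upper glycolysis, 0.13 for lower glycolysis, 0.11 for pyruvate and lactate, 0.079 for the HIF genes, -0.069 for hypoxia targets and 0.12 for the pentose phosphate genes. It put 1 member above and 0 below 1.2-fold, and 1 other pathway gene above, beside 8.62% of all genes above and 3.28% below. By counting intervals it gave 18 members higher and 4 lower, and scaling to the reads in genes of at least 500 bases gave 11 higher. Shares of all genes were not computed for the scaled intervals. These scalings of the intervals, and all alternatives for the other pathway genes, were chosen after seeing the data. Against 2 members past 1.2-fold lower and 0 higher, the counts were 1 lower at a mean of at least 5 FPKM, 1 lower with the scaling to longer genes, and 1 higher with a pseudocount of 0.1. Shares of all genes past 1.2-fold were 3.41% lower and 2.615% higher at 5 FPKM, and 4.64% and 4.87% with the scaling to longer genes. With a pseudocount of 0.1 these shares were 7.88% lower and 6.955% higher. At 1.1-fold the member counts were 9 lower and 3 higher, and at 1.5-fold and 2-fold 0 lower and 0 higher. Shares of all genes were not computed at these other folds. Of the other pathway genes, 3 lower and 0 higher became 5 lower and 1 higher with a pseudocount of 0.1, 1 lower at 5 FPKM, 9 lower and 3 higher at 1.1-fold, and 0 lower at 1.5-fold and 2-fold. A stricter fold or filter leaves fewer genes by construction; for the other moves the cause was not tested. No member past 1.2-fold changed its sign. Of the 41 members, 8 changed sign after rescaling to the same FPKM sum and 1 under each of the other scalings. Isoform shares within a library do not depend on its scaling. Members below 5 FPKM rest on 13 to 484 reads per library, and their intervals are wide.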
